A study of Mus musculus with 12 samples.

Results

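A set of 9 genes that mammals express mainly from the maternal or mainly from the paternal chromosome was followed while C2C12 myoblasts stopped dividing and formed myotubes. They are Mest, Ndn, Dlk1, Grb10, Plagl1, Peg3, Peg13, Airn and Snrpn, imprinted genes that lie outside the insulin-like growth factor genes themselves. They were chosen by name, with earlier results of these data known. Probes were matched through the RefSeq accession that the array files give for each, and the set is 9 of the 19259 genes named on the array. Snrpn had 3 probes and each of the others 1 probe, so that 11 probes were read.

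C2C12 is an immortalised mouse myoblast line, a single line in culture rather than muscle tissue. The 4 groups, each of 3 arrays from 3 independent experiments per the series description, were proliferating cells in 10% fetal bovine serum, taken to 80 to 90% confluence, and cells kept for 2, 5 or 8 days in 2% horse serum, the medium that starts differentiation. No group carried a transgene, deletion or drug according to the labels. Total RNA, 1 µg per sample, was labelled with Cy3 and hybridised to 12 one-colour Agilent arrays. The array signal counts RNA from both parental copies together, so it holds no measure of allele-specific expression.

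Imprinting marks a gene by DNA methylation in the egg or the sperm, and the mark keeps the copy from that parent silent or active in the offspring. Imprinted genes lie in clusters in which a methylated control region and, often, a long non-coding RNA set the state of several neighbours. Many of them act on growth, placental supply and the choice of precursor cells between division and differentiation, and several are abundant in embryonic muscle and decline after birth.

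Every level below is the signal of a probe as a percentage of the 75th percentile of its own array. This scale makes arrays comparable but not different probes, so levels are compared only within a gene. The summed levels of marker lists are the exception, and they weigh bright probes most. A change is called where the Benjamini-Hochberg adjusted p of limma's fit over all 22960 tested probes is under 0.05, and errors of log2 fold changes are standard errors. A probe entered the test where the scanner software flagged it as well above background on each of the 3 arrays of 1 stage or more. All 11 probes were tested, but Grb10 and the 3 Snrpn probes passed that filter through later stages, since not all proliferation arrays measured them. In RNA from a whole culture, fewer cells of a type and less RNA per cell cannot be told apart.

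The arrays sat on 3 slides of 4. Slide 1 held the 3 proliferation arrays and day 2 replicate 1, slide 2 held day 2 replicates 2 and 3 and day 5 replicates 1 and 2, and slide 3 held day 5 replicate 3 and the 3 day 8 arrays. Stage and slide overlap in large part, so every comparison was also fitted with a term for the slide, called the slide block here. Arrays of a stage correlated at 0.985 to 0.994 over the tested probes, and arrays of different stages at 0.929 to 0.985. Proliferation array 1 stood apart for several of the imprinted genes, low for Mest and Snrpn and high for Dlk1, although it correlated at 0.988 and 0.986 with the other two proliferation arrays. Of 7 muscle markers, 4 rose and 1 fell at day 2 against proliferation, 6 rose and 1 fell at day 5, and 4 rose and 1 fell at day 8. Myogenin (Myog), which switches on terminal muscle genes, rose by 2.82, 7.53 and 6.10 on the log2 scale, while the myoblast factor Myod1 fell at day 2 (-0.52) and rose at day 5 (0.93), and Myf5 fell at days 5 and 8 (-0.39 and -0.46). In the same comparisons 4 of 4 proliferation markers fell at days 5 and 8 but only Ccnb1 (-0.55) at day 2. Under the slide block the muscle markers had 3, 6 and 4 rises at days 2, 5 and 8 and 0 falls. The falls of Myod1 and Myf5 were thus not called there, while the counts of the proliferation markers were unchanged.

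The sequences just before the start sites of 5 of the genes are shown because their RNA followed 3 of the patterns described below: a peak at day 2 (Mest, Ndn), a fall (Plagl1, Dlk1) and a late rise (Grb10). Each is the 250 bases upstream of a RefSeq start on GRCm38.p6, read 5′ to 3′ on the gene's strand, with the E-box letters CANNTG in capitals. This palindromic motif, the same on both strands, is the core bound by Myod1 and Myog.
Mest, plus strand, chr6:30737800-30738049: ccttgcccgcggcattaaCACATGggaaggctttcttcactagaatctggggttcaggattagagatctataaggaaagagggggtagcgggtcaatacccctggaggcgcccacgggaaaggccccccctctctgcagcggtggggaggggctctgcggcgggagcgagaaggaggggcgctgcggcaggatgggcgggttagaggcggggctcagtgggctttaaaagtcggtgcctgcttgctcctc
Ndn, plus strand, chr7:62348027-62348276: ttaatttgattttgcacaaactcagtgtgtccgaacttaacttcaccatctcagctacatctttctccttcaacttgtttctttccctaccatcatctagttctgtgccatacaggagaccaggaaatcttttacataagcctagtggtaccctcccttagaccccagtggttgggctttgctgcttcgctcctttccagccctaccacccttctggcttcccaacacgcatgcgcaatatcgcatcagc
Plagl1, plus strand, chr10:13090582-13090831: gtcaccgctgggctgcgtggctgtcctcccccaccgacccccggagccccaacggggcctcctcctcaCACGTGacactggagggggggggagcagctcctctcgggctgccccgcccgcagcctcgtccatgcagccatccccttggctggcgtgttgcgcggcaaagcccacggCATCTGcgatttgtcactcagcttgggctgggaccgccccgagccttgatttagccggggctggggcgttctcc
Dlk1, plus strand, chr12:109452573-109452822: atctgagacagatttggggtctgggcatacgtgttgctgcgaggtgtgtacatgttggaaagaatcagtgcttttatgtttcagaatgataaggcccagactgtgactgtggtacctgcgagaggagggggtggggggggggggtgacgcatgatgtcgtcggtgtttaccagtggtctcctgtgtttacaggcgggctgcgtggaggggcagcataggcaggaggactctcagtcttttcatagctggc
Grb10, minus strand, chr11:12037421-12037670: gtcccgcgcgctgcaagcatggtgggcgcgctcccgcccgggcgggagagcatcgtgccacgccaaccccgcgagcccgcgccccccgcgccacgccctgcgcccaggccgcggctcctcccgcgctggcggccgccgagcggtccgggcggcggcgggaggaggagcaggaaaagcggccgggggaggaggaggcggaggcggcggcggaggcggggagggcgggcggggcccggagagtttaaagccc

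The Mest window held 1 match and 14 CpG dinucleotides, and the Plagl1 window held 2 matches and 19 CpG. No CANNTG occurred in the windows of Ndn (5 CpG), Dlk1 (8 CpG) or this Grb10 start, whose 40 CpG are reached or exceeded by 1.31% of the 32851 RefSeq windows. The motif is common: 66.2% of those windows hold it, and the median window has 6 CpG. The myogenic form CAGCTG, which is 1 kind of CANNTG, occurs in 13% of windows and, among the genes followed, in 1 further upstream start of Mest (chr6:30733256-30733505). RefSeq windows were found for 8 of the 9 genes, and which start the cells used was not examined.

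Across the 4 stages 7 of the 9 genes were called by the F test, all but Peg3 and Airn, beside 65.8% of all tested probes. At day 2 against proliferation Mest, Ndn and Peg13 rose and Plagl1 fell, that is 3 and 1 of 9, while 30.6% of all tested probes were called (18.3% higher, 12.2% lower). At day 5, 3 rose (Mest, Grb10, Peg13) and 2 fell (Plagl1, Dlk1), beside 47.5% of probes (23.7% higher, 23.8% lower). At day 8, 3 rose (Grb10, Peg13, Snrpn) and 2 fell (Plagl1, Dlk1), beside 54.8% (25.4% higher, 29.4% lower). From day 2 to day 5 Grb10 rose while Plagl1 and Ndn fell, beside 30.1% (14.3% higher, 15.7% lower), and from day 5 to day 8 Mest alone was called, downward, beside 12.6% (5.88% higher, 6.72% lower). These counts are near the shares of the whole array. The median log2 change of the 9 genes was 0.05, 0.35 and -0.13 at days 2, 5 and 8, beside 0.07, -0.02 and -0.11 over all tested probes. Under the slide block the counts were 3 rises and 1 fall at day 2, 3 and 1 at day 5, and 1 and 1 at day 8.

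**Figure D1:**
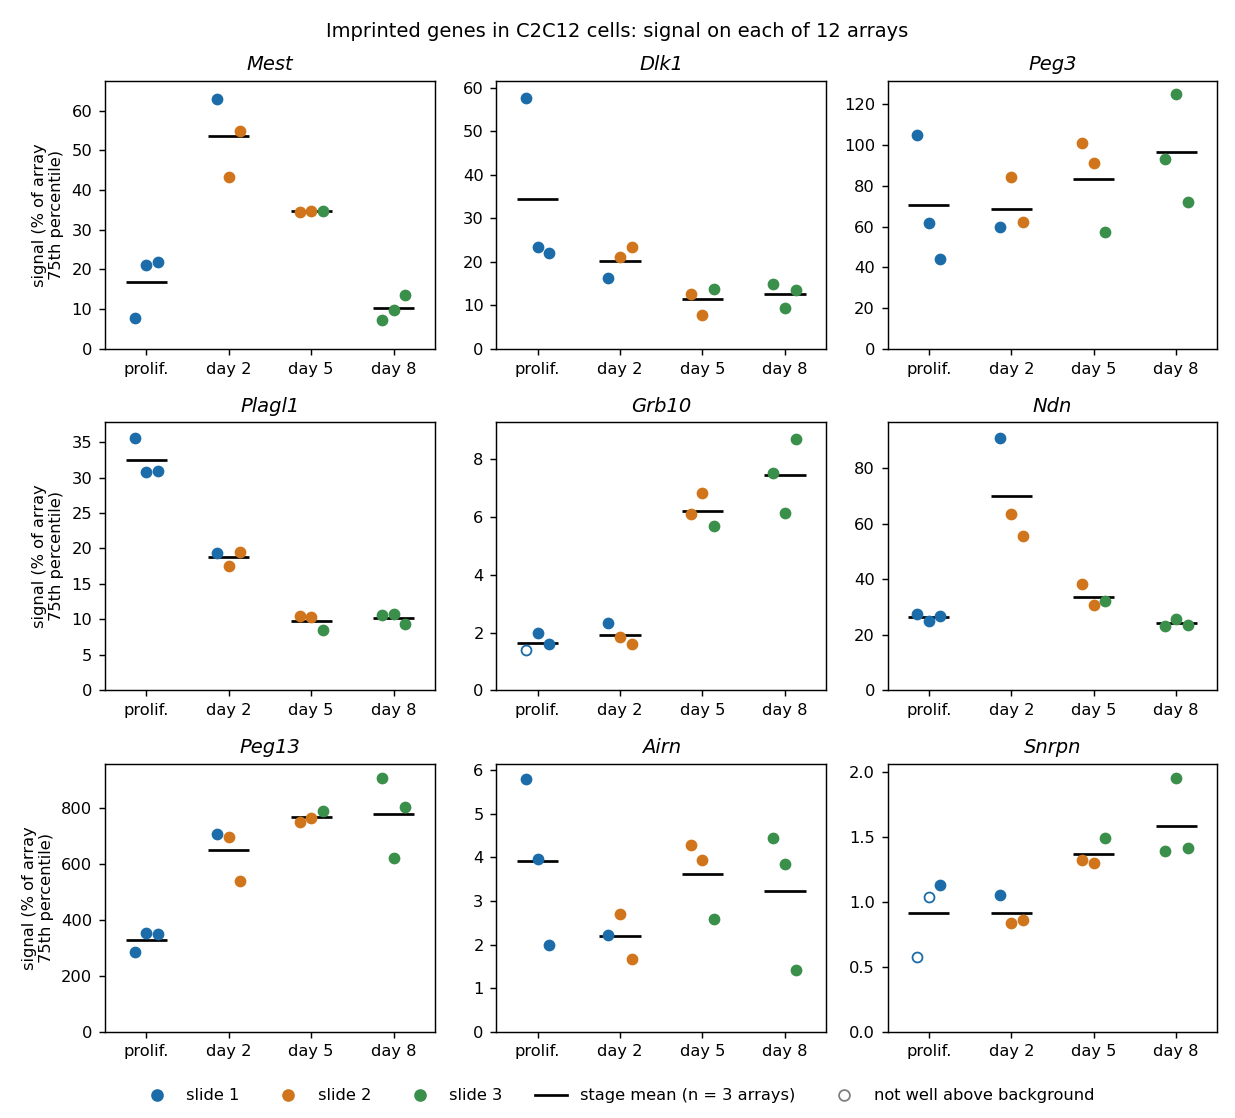
Signal of each imprinted gene on each of the 12 arrays, in percent of the array's 75th percentile (y axis, linear from 0), by stage (x axis). Points are arrays, coloured by slide, open where the probe was not well above background, and bars are stage means (n = 3). Mest and Ndn were highest at day 2, with means of 53.7% and 69.9%, Plagl1 was highest in proliferating cells and Grb10 at days 5 and 8.

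Mest encodes a protein of the alpha/beta-hydrolase fold in the endoplasmic reticulum and is expressed from the paternal copy in embryonic mesoderm, muscle and fat. Its level on the probe of NM_008590 (chromosome 6) was 7.89, 21.1 and 21.9% in proliferating cells, 63.0, 43.3 and 54.9% at day 2, 34.5, 34.8 and 34.8% at day 5, and 7.37, 9.89 and 13.5% at day 8. Every day 2 array lay above every other array, and the day 8 range overlapped that of proliferating cells. Mest averaged 53.7 ± 9.90% at day 2 and 17.0 ± 7.87% in proliferating cells (SD, n = 3 each), a rise of 1.79 ± 0.36 on the log2 scale (3.45-fold, adjusted p = 0.00442). It remained above proliferation at day 5 (1.17 ± 0.36, adjusted p = 0.0202) and then fell by 1.80 ± 0.36 from day 5 to day 8 (adjusted p = 0.0113), that is to 10.3 ± 3.08% at day 8, against 34.7 ± 0.173% at day 5 (SD, n = 3 each).

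In falling order the Mest levels ran day 2, day 5, proliferation, day 8. The first pair of neighbours did not differ past the threshold (day 5 against day 2, -0.62, adjusted p = 0.234), nor did the last (day 8 against proliferation, -0.63, 95% interval -1.43 to 0.16, adjusted p = 0.159). The size of these values depended on proliferation array 1. Without it the rise was 1.30 at day 2 (adjusted p = 0.00516) and 0.69 at day 5 (0.042), and the day 8 value became a called fall of 1.12 (0.00356). Under the slide block the day 2 rise was 2.03 (adjusted p = 0.036), while the calls at day 5 (1.54, 0.159) and from day 5 to day 8 (-1.81, 0.109) were lost. Within slide 1, where day 2 has a single array and 1 of all tested probes was called, the day 2 value was 2.03 (adjusted p = 0.163), and within slide 3 the day 8 against day 5 value was -1.81 (0.0949).

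Ndn, or necdin, is a MAGE-family protein known to bind E2F factors and restrain division, and it has been studied as a promoter of myoblast differentiation in mice. Like Mest it peaked at day 2. Ndn (NM_010882, chromosome 7) stood at 27.6, 24.8 and 26.8% in proliferating cells, 91.0, 63.3 and 55.4% at day 2, 38.2, 30.8 and 32.3% at day 5, and 23.3, 25.8 and 23.5% at day 8. The lowest day 2 array was above the highest array of any other stage, and the proliferation and day 8 ranges overlapped. The mean was 69.9 ± 18.7% at day 2 and 26.4 ± 1.44% in proliferating cells (SD, n = 3 each), a rise of 1.37 ± 0.18 (2.59-fold, adjusted p = 0.000354).

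From day 2 to day 5 Ndn fell by 1.02 ± 0.18 on the log2 scale (adjusted p = 0.00121), and this call held within slide 2, which carries arrays of both stages (-0.79, adjusted p = 0.0448). Its day 2 rise held under the slide block (1.79, adjusted p = 0.0012) and was 1.79 (0.0557) within slide 1, where day 2 has a single array. At day 5 the level was above proliferation by 0.35 (adjusted p = 0.129), a difference that became 1.00 (0.0219) under the slide block and was also called without day 2 replicate 1 (0.35, 0.0492). At day 8 Ndn differed from proliferation by -0.13 (95% interval -0.52 to 0.26, adjusted p = 0.566), a value that turned to 0.58 (0.263) under the slide block. The day 8 against day 5 value was -0.48 (adjusted p = 0.103, or 0.0425 without day 2 replicate 1).

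Ndn is best known from neurons, so neuronal markers were read beside it. Of the 4 neural markers on the array 3 were tested, and 2 of them rose at day 2, Tubb3 by 0.92 and Map2 by 0.55. The summed level of the list rests mainly on the bright probes of Tubb3 and Map2. It was 2050 to 3120% in proliferating cells, 4160 to 5110% at day 2, 1660 to 1940% at day 5 and 1450 to 1610% at day 8. Tubb3 fell at days 5 and 8, by 1.20 and 1.67, while Map2 rose by 1.03 and 1.11. Snap25, the other tested marker, fell by 0.86 at day 8. Under the slide block 1 of the 3 tested markers was called at day 2, as a rise, and 0 at days 5 and 8. The part of this in the Ndn result was not tested.

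Dlk1 and Grb10 both have a part in signalling at the cell surface, Grb10 as an adaptor that binds receptors. Dlk1 is a transmembrane protein with epidermal growth factor repeats, related to Notch ligands and expressed from the paternal copy. It is known for holding back fat cell formation and for its part in muscle growth. In these cells it was lower at days 5 and 8 than in proliferation. Dlk1 (NM_010052, chromosome 12) stood at 57.5, 23.5 and 22.0% in proliferating cells, 16.2, 21.0 and 23.3% at day 2, 12.7, 7.68 and 13.8% at day 5, and 15.0, 9.36 and 13.5% at day 8. Every array of days 5 and 8 lay below every earlier array, and the ranges of proliferation and day 2 overlapped. The fall was 1.49 ± 0.37 at day 5 (2.81-fold lower, adjusted p = 0.00645) and 1.32 ± 0.37 at day 8 (2.50-fold lower, 0.0106), with means of 11.4 ± 3.26% at day 5 and 12.6 ± 2.92% at day 8, against 34.3 ± 20.1% in proliferating cells (SD, n = 3 each).

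Proliferation array 1, at 57.5%, stood apart from the other two arrays of its stage. Without it the Dlk1 fall was 1.05 at day 5 (adjusted p = 0.0151) and 0.88 at day 8 (0.0284). Under the slide block both falls were larger but not called, at -2.10 (adjusted p = 0.0586) and -2.25 (0.114). The step from day 2 to day 5 (-0.86, adjusted p = 0.107) was called within slide 2 (-1.17, 0.0373) and without proliferation array 1 (-0.86, 0.0299). Day 2 differed from proliferation by -0.63 (adjusted p = 0.215) and day 8 from day 5 by 0.17 (0.794).

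Because Dlk1 marks fat cell precursors, adipocyte markers were read beside it. Pparg, the master regulator of fat cells, fell by 0.84, 1.65 and 1.54 at days 2, 5 and 8. It is the only one of the 2 tested adipocyte markers that was called. Under the slide block 0 of the 2 fell at day 2, so the day 2 fall of Pparg was not called there, and 1 fell at each of days 5 and 8. Adiponectin (Adipoq) and perilipin (Plin1), which mature fat cells make, were not well above background on any of the 12 arrays. The summed level of the 5 markers came mostly from the Pparg probe. It was 448 to 547% in proliferating cells, 249 to 329% at day 2, 176 to 196% at day 5 and 195 to 216% at day 8. Of the genes in the Dlk1 cluster, the maternally expressed RNA Meg3 and the paternally expressed Rtl1 and Dio3 had a probe each, and none was well above background on any array.

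Grb10, an adaptor protein that binds the insulin and insulin-like growth factor 1 receptors and dampens their signal, is expressed from the maternal copy in most mouse tissues and from the paternal copy in neurons. It was the gene with the largest late rise of the 9. Its probe (NM_010345, chromosome 11) gave 1.39, 1.97 and 1.61% in proliferating cells, 2.33, 1.84 and 1.60% at day 2, 6.10, 6.82 and 5.69% at day 5, and 7.51, 6.14 and 8.69% at day 8. Days 5 and 8 lay apart from both earlier stages on every array, and within each pair the ranges overlapped. The probe was well above background on 2 of 3 proliferation arrays.

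Grb10 averaged 7.45 ± 1.28% at day 8 and 1.66 ± 0.293% in proliferating cells (SD, n = 3 each), a rise of 2.17 ± 0.19 (4.49-fold, adjusted p = 4.24e-06). At day 5 it had risen by 1.91 ± 0.19 (3.77-fold, adjusted p = 1.32e-05), and between days 2 and 5 it rose by 1.70 ± 0.19 (adjusted p = 6.01e-05). These 3 calls held under every alternative run, the slide block included (2.79, 2.42 and 1.91, with adjusted p of 0.00246, 0.00115 and 0.000307), and the step also held within slide 2 (1.91, adjusted p = 0.00251). Normexp background correction kept the calls at smaller values of 1.42 at day 8, 1.02 at day 5 and 0.64 for the step. Day 2 differed from proliferation by 0.21 (adjusted p = 0.431), which normexp turned into a called rise of 0.37 (0.0374), and day 8 differed from day 5 by 0.25 (0.408).

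Plagl1 and Peg3 are zinc-finger proteins. Plagl1, also called Zac1, is a transcription factor that halts the cell cycle and regulates other imprinted genes in the mouse, and it fell from the first sampled day onward. Its level (NM_009538, chromosome 10) was 35.6, 30.8 and 30.9% in proliferating cells, 19.3, 17.5 and 19.5% at day 2, 10.5, 10.3 and 8.51% at day 5, and 10.6, 10.7 and 9.40% at day 8. The stages formed 3 separate tiers on these arrays, with days 5 and 8 together in the lowest. Against proliferation it fell by 0.79 ± 0.13 at day 2 (adjusted p = 0.00152), 1.73 ± 0.13 at day 5 (3.32-fold lower, 1.55e-06) and 1.66 ± 0.13 at day 8 (3.17-fold lower, 1.66e-06), and by 0.94 ± 0.13 from day 2 to day 5 (0.000262).

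All 4 Plagl1 falls were called under the slide block (-0.75, -1.57, -1.31 and -0.83, with adjusted p of 0.0263, 0.0018, 0.0176 and 0.00491), and the step between days 2 and 5 was called within slide 2 (-0.83, 0.026). Within slide 1, where day 2 has a single array, the day 2 value was -0.75 (adjusted p = 0.145). Day 8 differed from day 5 by 0.07 (95% interval -0.22 to 0.36, adjusted p = 0.76). Of its 2 relatives in the PLAG family, Plagl2 differed by 0.01 and Plag1 by -0.75 at day 8 (adjusted p = 0.966 and 0.491). Neither was called, and the Plag1 value turned to 0.49 (0.0113) with normexp background correction, which called it higher.

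Peg3, a large zinc-finger protein expressed from the paternal copy and used as a marker of muscle stem and interstitial cells, was not called in any comparison. It stood at 105, 61.9 and 44.3% in proliferating cells, 60, 84.6 and 62.1% at day 2, 101, 91.0 and 57.5% at day 5, and 93.4, 125 and 71.9% at day 8 (NM_008817, chromosome 7). The ranges of all 4 stages overlapped. At day 8 the difference from proliferation was 0.52 ± 0.33 (95% interval -0.22 to 1.25, adjusted p = 0.213), and it became 0.85 (0.042) without proliferation array 1 and 0.85 (0.0403) without spots flagged as non-uniform.

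Peg13 and Airn are long non-coding RNAs of the paternal copy, Peg13 within an intron of Trappc9 and Airn overlapping Igf2r in the opposite direction, where it silences Igf2r in the mouse. Peg13 rose early and stayed high. Peg13 (NR_002864, chromosome 15) stood at 286, 352 and 350% in proliferating cells, 706, 697 and 540% at day 2, 749, 763 and 788% at day 5, and 907, 622 and 804% at day 8. Each later array was above all proliferation arrays. The rise was 0.97 ± 0.17 at day 2 (1.96-fold, adjusted p = 0.00206), 1.22 ± 0.17 at day 5 (2.34-fold, 0.000147) and 1.23 ± 0.17 at day 8 (2.34-fold, 0.000124).

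Peg13 held its call under the slide block at day 2 (1.11, adjusted p = 0.0215) and day 5 (1.41, 0.0161) but not at day 8 (1.37, 0.0548), and within slide 1 the day 2 value was 1.11 (0.0955). Day 5 differed from day 2 by 0.25 (adjusted p = 0.299), and day 8 from day 5 by 0.00 (95% interval -0.37 to 0.38). Trappc9, its host, encodes a subunit of a vesicle-tethering complex and rose too: 0.83 ± 0.13, 1.27 ± 0.13 and 1.21 ± 0.13 at days 2, 5 and 8 (adjusted p = 0.00129, 1.9e-05 and 2.35e-05), and 1.12, 1.32 and 1.34 on a second probe. The strand and sequence of the probes are not given in the sources used here, so signal from an intronic RNA and from its host was not separated beyond what the accessions state. The other tested neighbours, the Argonaute gene Ago2 (0.47) and the chromatin accessibility factor Chrac1 (-0.14), were not called at day 8 (adjusted p = 0.154 and 0.406), and the potassium channel Kcnk9 was not tested.

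Airn was dim and variable. Its probe (NR_002853, chromosome 17) gave 5.79, 3.95 and 1.99% in proliferating cells, 2.22, 2.70 and 1.66% at day 2, 4.29, 3.94 and 2.59% at day 5, and 4.44, 3.84 and 1.42% at day 8. The spread inside a stage was as wide as that between stages, and all ranges overlapped. No comparison was called: Airn differed from proliferation by -0.73 ± 0.47 at day 2, -0.02 ± 0.47 at day 5 and -0.30 ± 0.47 at day 8 (adjusted p = 0.261, 0.977 and 0.605), with a 95% interval of -1.34 to 0.73 at day 8.

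Genes beside Airn did change. Igf2r, the receptor that clears Igf2 from the cell surface, stood at 988, 805 and 890% in proliferating cells, 1290, 1310 and 1320% at day 2, 1820, 1830 and 1620% at day 5, and 1850, 1570 and 1810% at day 8. It rose by 0.56 ± 0.12, 0.98 ± 0.12 and 0.96 ± 0.12 at days 2, 5 and 8 (adjusted p = 0.00746, 7.84e-05 and 7.53e-05), and the day 5 and day 8 rises were called under the slide block (0.0183 and 0.0385) but not the day 2 rise (0.0843). Slc22a2, not well above background on any proliferation array, was at least 1.21-fold higher at day 5, a description only, since it entered the test through the stage where it is high. Slc22a3 was not tested.

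Snrpn encodes SmN, a core protein of the spliceosome that is abundant in brain and is expressed from the paternal copy in the same cluster as Ndn. In these cells it lay near background, and its 3 probes differed in the size of the day 8 change. The probe that represents the gene (NM_001082962, chromosome 7) gave 0.578, 1.04 and 1.13% in proliferating cells, 1.05, 0.834 and 0.861% at day 2, 1.32, 1.30 and 1.49% at day 5, and 1.39, 1.95 and 1.41% at day 8. Only 1 of 3 proliferation arrays had this probe well above background, and the day 5 and day 8 arrays all lay above the earlier ones. It rose by 0.83 ± 0.24 at day 8 (adjusted p = 0.0137) and differed by 0.64 ± 0.24 at day 5 (0.0509), which was called under 5 of 21 alternatives.

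Without proliferation array 1, the lowest of all arrays, the Snrpn values were 0.53 at day 8 (adjusted p = 0.034) and 0.33 at day 5 (0.169). The day 8 call did not hold under the slide block (0.95, adjusted p = 0.318), without day 8 replicate 2 (0.67, 0.0554) and where dim signals were set to a floor (0.38, 0.0872). The probe of NM_001082961 differed by 1.49 ± 0.20 at day 8 and 0.87 ± 0.20 at day 5, or 0.75 and 0.50 under the slide block. It was well above background on 1 of 3 proliferation arrays and passed the filter through days 5 and 8, so these values describe it and carry no test. The probe of NM_013670, which passed the filter through day 5 alone, was not called, at 0.50 ± 0.30 at day 8 (adjusted p = 0.185). Snrpb, the closely related Sm protein that most cells use, fell by 0.95 at day 8 (adjusted p = 0.00304, or 0.121 under the slide block).

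**Figure D2:**
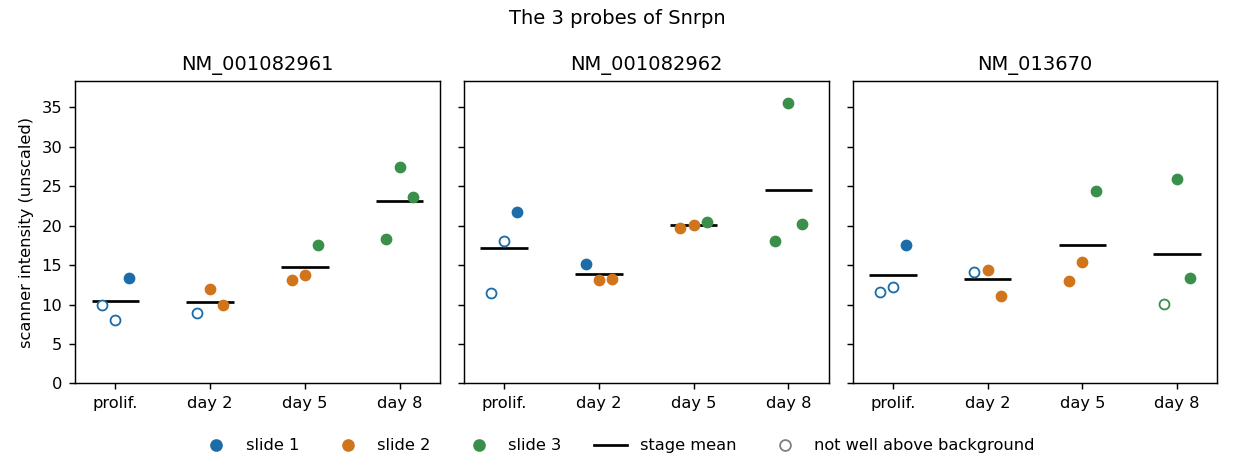
Unscaled scanner intensity (y axis, linear from 0) of the 3 Snrpn probes on each array by stage (x axis). Points are arrays, coloured by slide, open where not well above background, and bars are stage means (n = 3). On the NM_001082961 probe the day 8 arrays gave 18.3, 27.5 and 23.7, above the 13.4 of the brightest proliferation array, while on the NM_013670 probe the stages overlap.

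The plot of log2 changes sets the 9 genes side by side with and without the slide block. Plagl1 and Grb10 were each called at days 5 and 8 in both fits. Mest, Dlk1 and Peg13 kept the direction of their called changes, with wider errors.

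**Figure D3:**
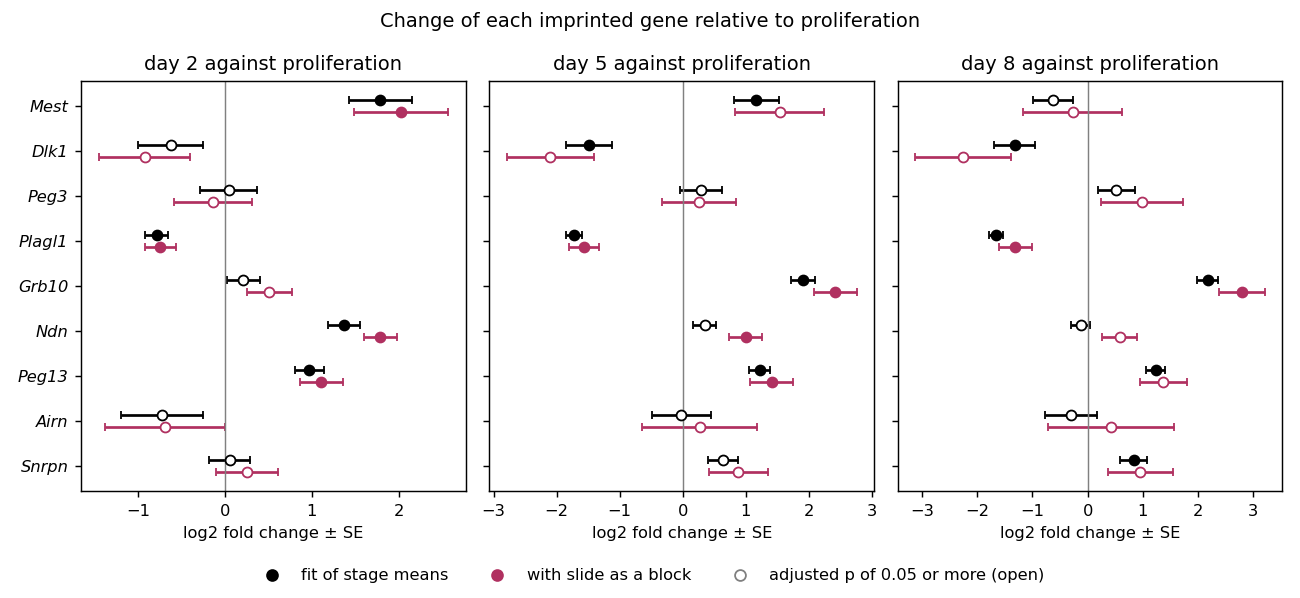
Log2 fold change ± SE (x axis) of each imprinted gene (rows) at day 2, day 5 and day 8 against proliferation (panels). Black points come from the fit of stage means and red points from the fit under the slide block (n = 3 arrays per stage), and open points have an adjusted p of 0.05 or more. Grb10 at day 8 lies at 2.17 and 2.79, and Ndn at day 8 lies at -0.13 and 0.58.

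Genes of the same clusters were read together with other listed genes of chromosome 6. The lists held 35 genes, of which 29 had a probe and 20 were tested. Of these, Peg10, Sgce, Ppp1r9a, Asb4 and Herc3 lie outside the cluster of Mest. The counts are therefore not of neighbours alone. At day 2, 6 rose and 2 fell, at day 5, 10 rose and 5 fell, and at day 8, 10 rose and 3 fell, beside the 30.6, 47.5 and 54.8% of all probes called. Under the slide block the counts were 4 and 1, 7 and 1, and 6 and 1. Their median log2 change was 0.12, 0.71 and 0.58. From day 2 to day 5, 8 rose and 1 fell, beside 30.1% of all probes, and from day 5 to day 8, 1 rose and 5 fell, beside 12.6%. The rises include Slc22a2, Usp29 and Ppp1r9a, which were not well above background on any proliferation array and entered the test through later stages.

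In the Grb10 cluster the aromatic amino acid decarboxylase Ddc stood at 3.89, 4.80 and 4.81% in proliferating cells, 19.4, 20.9 and 17.5% at day 2, 106, 124 and 126% at day 5, and 44.8, 42.0 and 46.1% at day 8. No arrays of different stages overlapped. Ddc rose by 2.10 ± 0.14, 4.72 ± 0.14 and 3.30 ± 0.14 at days 2, 5 and 8 and fell by 1.42 ± 0.14 from day 5 to day 8 (adjusted p = 1.06e-05, 2.36e-09, 1.52e-08 and 0.000372), and all 4 were called under the slide block. The actin nucleator Cobl rose by 0.99 at day 5 (adjusted p = 0.000199) and fell by 0.80 from day 5 to day 8 (0.00746). Grb10 itself differed by 0.25 in that last step.

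In the cluster of Ndn and Snrpn, Peg12 fell throughout. Peg12, a paternally expressed relative of the Frat inhibitors of GSK3, stood at 186, 196 and 207% in proliferating cells, 128, 117 and 119% at day 2, 61.0, 57.2 and 67.6% at day 5, and 38.2, 40.6 and 41.7% at day 8. Each stage lay wholly below the one before. Peg12 fell by 0.69 ± 0.11, 1.66 ± 0.11 and 2.29 ± 0.11 against proliferation (adjusted p = 0.00153, 8.33e-07 and 6.15e-08), with each fall also called under the slide block (0.0398, 0.00105 and 0.000636).

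The ubiquitin ligase Ube3a, imprinted in neurons, fell by 0.93 at day 2 and 0.78 at day 5 (adjusted p = 0.0112 and 0.0149), calls that did not hold under the slide block (0.0706 and 0.125). At day 8 it differed by -0.52 (adjusted p = 0.072), while a second probe fell by 0.92 (0.00971). Mkrn3, a RING-finger protein of the paternal copy, rose by 1.04 from day 2 to day 5 and fell by 1.23 from day 5 to day 8 (adjusted p = 0.0261 and 0.0287), and neither call held under the slide block (0.132 and 0.179). The flippase Atp10a fell by 0.55 at day 5 (adjusted p = 0.0204, or 0.32 under the slide block).

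Beside Peg3, the deubiquitinase gene Usp29 gave 0.313, 0.325 and 0.366% in proliferating cells, not well above background on any array, 3.10, 2.28 and 2.23% at day 5, and 2.88, 2.00 and 2.39% at day 8. It was at least 2.82-fold higher at day 5 and at least 2.69-fold higher at day 8 than in proliferating cells, values that describe it without a test, since it passed the filter through those stages. The zinc-finger gene Zim1, of the maternal copy, rose by 1.67 ± 0.30 at day 5 and 1.18 ± 0.30 at day 8 (adjusted p = 0.000926 and 0.0068), and neither was called under the slide block (0.0999 and 0.277), although its step from day 2 to day 5 was (1.72, 0.00936). Peg3 differed by 0.29 ± 0.33 at day 5 and 0.52 ± 0.33 at day 8 in the same arrays.

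Next to Mest, Copg2, a coat protein of transport vesicles that overlaps the end of Mest, differed by -0.06 and -0.08 at days 2 and 5 and fell by 0.61 at day 8 (adjusted p = 0.0452, or 0.6 under the slide block). In the second imprinted cluster of chromosome 6, the sarcoglycan Sgce rose by 0.57, 0.62 and 0.70 at days 2, 5 and 8 (adjusted p = 0.00563, 0.00164 and 0.000599, and 0.0557, 0.0803 and 0.132 under the slide block). The retrotransposon-derived Peg10 fell by 2.45 at day 5 and 2.74 at day 8 (adjusted p = 0.00569 and 0.0025, and 0.178 and 0.118 under the slide block), and its day 8 value was -0.41 with normexp. Ppp1r9a, not well above background on any proliferation array, was at least 1.60-fold higher at day 8, without a test for the same reason, and its fitted value under the slide block was -0.36. Asb4 fell by 2.28 at day 5 (adjusted p = 0.00521, or 0.34 under the slide block). It stood at 1.24, 7.48 and 1.67% in proliferating cells and 0.708, 0.493 and 0.384% at day 5. At each of these stages it was well above background on 2 of 3 arrays. Herc3, listed for the same chromosome but not for that cluster, rose by 1.04 at day 8 and was called in both fits (adjusted p = 4.91e-05 and 0.0364).

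**Figure D4:**
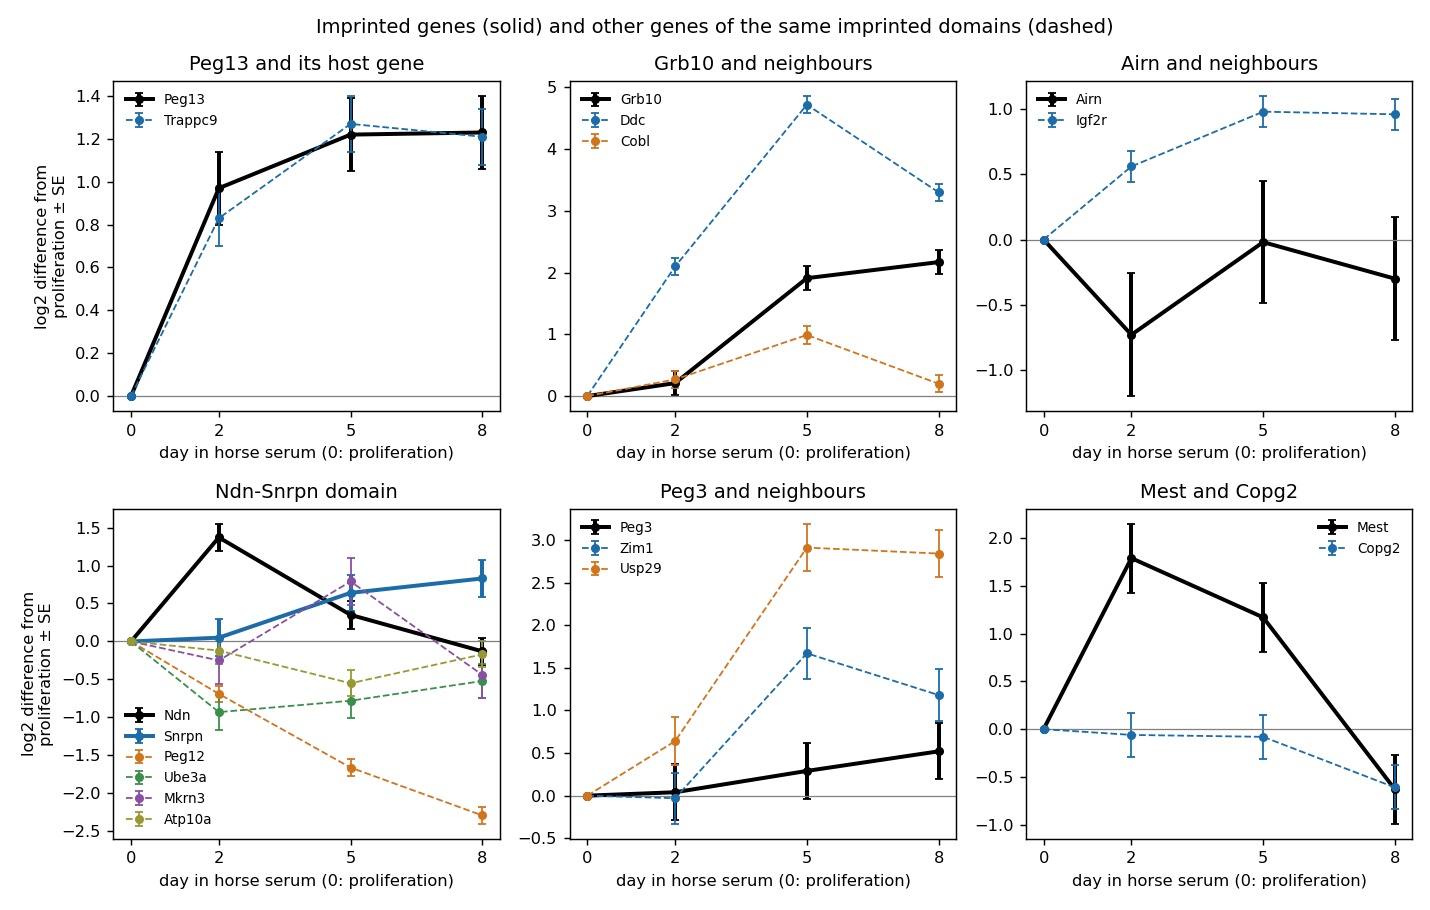
Log2 difference from proliferation ± SE (y axis) by day (x axis, 0 is proliferation) for imprinted genes (solid lines) and other genes of their clusters (dashed lines), from the fit of stage means (n = 3 arrays per stage). Panels have their own y scales, and the points of Usp29 rest on signals near background at proliferation. Peg13 and Trappc9 reach 1.23 and 1.21 at day 8, while Ndn peaks at 1.37 at day 2 and Peg12 falls to -2.29 at day 8.

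Over all listed imprinted genes apart from the 9, cluster neighbours included, 45 were tested of 60 on the array, of which 21 rose and 8 fell at day 8 (54.8% of all probes were called), or 11 and 2 under the slide block. The largest values at day 8 were those of decorin (Dcn), a matrix proteoglycan, at 4.64 and Igf2, the growth factor, at 4.54, both also called under the slide block (slide-block adjusted p = 9.49e-05 and 0.00327). Of the Kcnq1 cluster, Slc22a18 rose by 2.23, Tspan32 by 2.18 and the potassium channel Kcnq1 by 1.81. All of these were also called under the slide block, at 2.19, 2.39 and 2.18. Osbpl5 rose by 1.31 and the cell cycle inhibitor Cdkn1c by 1.55. Osbpl5 (1.30, adjusted p = 0.0559) and Cdkn1c (1.24, 0.242) were not called under the slide block. Elsewhere Zrsr1 rose by 1.16 (1.14 under the slide block, adjusted p = 0.0792). Gatm, which makes the creatine precursor, Inpp5f and Mcts2 fell by 2.37, 2.21 and 1.12. Their values under the slide block were -0.38 (adjusted p = 0.696), -0.76 (0.322) and -1.78 (0.0163), and Mcts2 alone was called. Slc38a4, counted among the falls, was not well above background at either proliferation or day 8, and no fold is given for it there.

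A list of genes that mouse studies group as a co-expressed imprinted network, which holds 6 of the 9 genes, had 13 tested members. Of these 6 rose and 2 fell at day 2, 7 rose and 3 fell at day 5, and 6 rose and 3 fell at day 8, beside 30.6, 47.5 and 54.8% of all probes called, with medians of 0.21, 0.62 and 0.52. Under the slide block the day 8 count was 4 and 1. Among relatives of the 9, Grb14, an adaptor of the Grb10 family, fell by 1.41 at day 5 (adjusted p = 0.00113, called under the slide block at 0.00512) and rose again by 1.02 from day 5 to day 8 (0.0302, or 0.79 with an adjusted p of 0.208 under the slide block). The Necdin-related Maged1 differed by 0.13 at day 8 (adjusted p = 0.836), and Grb7 was not tested.

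Across the 12 arrays, which share the 4 stages, the Pearson correlation of log2 levels was 0.80 between Mest and Ndn, 0.82 between Plagl1 and Dlk1, -0.92 between Plagl1 and Grb10 and -0.91 between Plagl1 and Peg13. These are descriptions of 12 points in 4 groups, without a test. Among the other 13741 named and tested genes, the profile most like that of Mest was that of Nectin2 (r = 0.963), followed by Ephx1 (0.947) and Mgst3 (0.940). Ndn was closest to Slc27a3 (0.963), Sh2d3c (0.950) and tenomodulin, Tnmd (0.949). Plagl1 was closest to Igsf11 (0.994), Jam2 (0.987) and Havcr2 (0.987), and Dlk1 to Barx1 (0.930), Slc39a10 (0.923) and Arl4c (0.914).

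Grb10 had its nearest profiles in Ces2c (0.990), Colec12 (0.988) and Nr5a1 (0.987), and Peg13 in Crabp2 (0.989), Ifnar1 (0.986) and Znfx1 (0.986). For Snrpn they were Nrp1 (0.958), Prss23 (0.931) and Ccny (0.928). The uncalled genes had looser matches, with Ptgfr (0.883), Rbms3 (0.872) and Rbl2 (0.863) for Peg3 and Napg (0.884), Cnbp (0.879) and Bpnt2 (0.846) for Airn. The spread between replicates within a stage enters these values as well as the stage means.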

How the data were processed

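RNA of 12 C2C12 samples was measured on one-colour arrays, 3 per stage. Per the submitters' processing notes the arrays were read with Agilent Feature Extraction 10.5.1.1, and per the file headers the deposited column used here is the green processed signal, an intensity in scanner units after that software's background treatment. No normalization between arrays is recorded there. Samples were grouped by the labels. Setting aside 1417 control spots and 200 spots of negative probes from the 39448 on the array left 37246 probes.

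From the deposited intensity, log2 values were taken here relative to the array's own 75th percentile, and replicate spots were averaged, leaving out population outliers. Stage means were fitted over all arrays with limma 3.58.1 in R 4.3.3 (lmFit, eBayes), and p-values were adjusted over all 22960 tested probes. Between 56.9% and 69.5% of spots per array were well above background, 0 were saturated, and the 75th percentile lay between 1295 and 1993. The median negative-probe signal was 6.25, 5.39 and 2.42 on proliferation arrays 1, 2 and 3 and 1.39 to 3.53 later, which bears on dim probes such as those of Snrpn. The number of arrays limits the precision. Spots flagged as non-uniform (19.8% to 28.3%) were kept.

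Where a gene had several tested probes, the one of highest mean signal stands for it. "At least N-fold" sets the brighter stage's mean against the dim stage's mean of, per array, the higher of the probe's own signal and the lowest signal well above background. Accessions were named through RefSeq's table of GRCm38.p6, which named 22216 probes; the file headers name build mm9, and no coordinates were carried between them. Named genes were the 9 genes, their cluster lists by call (1 listed gene is counted but not reported here by name), the 12 other imprinted genes with the largest called day 8 change, relatives, and the 3 closest profiles per gene. The genes and lists were chosen with earlier results of these data known. Same-numbered replicates correlated at -0.155 to 0.243 over 18 pairs, with 5 over 0.1, and were not taken as paired.

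Alternatives were normexp background correction (offset 50, on median rather than mean signals), quantile normalization, a percentile taken over detected probes alone, no filter, a floor, leaving out non-uniform spots, the median over probes, a replicate block, a slide block, within-slide fits and leaving out each array. The fit was tested on simulated data in which 100 probes changed by 1 and 100 by 2 on the log2 scale at day 8. It called 47% and 77% of them, with 5 false calls. Far fewer probes changed there than were called in these data. Plots were drawn with matplotlib 3.10.9 in Python 3.11.15.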

Additional observations from a re-analysis of the deposited data

How the results depend on the processing

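Of the 9 genes' results, 340 of 383 kept direction and side of the threshold under the alternatives other than leaving out an array, and 513 of 540 with 1 array left out. Calls over all probes numbered 3518, 5212 and 3972 at days 2, 5 and 8 against proliferation under the slide block, 744 from day 5 to day 8 and 7216 across stages, against 7018, 10915, 12573, 2894 and 15099 without it. Within slide 1 a single probe (1) was called at day 2 and within slide 3, 117 for day 8 against day 5, from 4 arrays each. Without non-uniform spots the counts were 3465, 5729, 7067, 3660 (day 5 against day 2), 1416 and 8015, with fewer probes tested. Day 8 against day 5 gave 1835 calls with normexp and 1282 with no filter. Leaving out 1 array gave 5083 to 7308, 9595 to 10978, 11094 to 13012, 5661 to 7182, 1122 to 3398 and 13630 to 15401 calls.

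The share of calls that were higher at days 2, 5 and 8 was 60%, 49.9% and 46.3%, and 72.8%, 59.8% and 60.7% with normexp, whose median over all probes was 0.2, 0.133 and 0.152. For day 8 against day 5 it was 46.7%, 57.1% with quantile normalization. A replicate block, which the numbers do not support as a pairing, gave 6756, 10833, 12481, 6646 and 2440 calls, called Airn at day 2 (-0.73, adjusted p = 0.0499) and ended the day 8 call of Copg2 (0.065).

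Signs turned only for uncalled values of the 9 genes. Under the slide block and within slides these were Dlk1 (-0.15), Peg13 (-0.04) and Airn (0.16) for day 8 against day 5, Peg3 at day 2 (-0.14), Ndn at day 8 (0.58) and Airn at days 5 and 8 (0.27, 0.43). Normexp turned Peg13 (-0.09) and Airn (0.09) for day 8 against day 5 and Airn at days 5 and 8 (0.14, 0.23), quantile normalization Airn (0.17, and 0 at day 8), and the other percentile Peg3 and Snrpn at day 2 (both -0.04). The floor turned Snrpn at day 2 (-0.41). Without non-uniform spots Mest at day 8 was 0.11 and Peg3 for day 5 against day 2 was -0.09. At day 8 other genes turned too: Ppp1r9a (-0.36), Atp10a (0.08) and Plag1 (0.49) under the slide block, Asb4 (0.09), Mkrn3 (0.04), Chrac1 (0.11), Grb14 (0.17) and Plag1 (0.49) with normexp, Ago2 (-0.08) with the floor and Plagl2 (-0.01) with the other percentile; of these Ppp1r9a alone was called, through the stages where it is high. The cause was not tested. With 1 array left out the ranges were -0.09 to 0.37 for Dlk1, -0.12 to 0.16 for Peg13, -0.02 to 0.42 for Peg3, -0.03 to 0.13 for Plagl1 and -0.59 to 0.23 for Airn (day 8 against day 5), -0.24 to 0.38 for Peg3 and -0.25 to 0.23 for Snrpn (day 2), -0.44 to 0.33 for Airn (day 5), and -0.73 to 0.21 for Airn, -1.45 to 0.62 for Plag1, -0.28 to 0.25 for Plagl2 and -0.16 to 0.47 for Maged1 (day 8). Signal near background limits Snrpn, Grb10 at early stages and Airn.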
